A study of Homo sapiens with 24 samples.

Results

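RBPMS is an RNA-binding protein, and its loss was studied here in human embryonic stem cells of the line HUES6 after 48 h of mesoderm induction. The groups compared were 3 libraries labelled RBPMS KO at 48 h and 3 libraries labelled WT at 48 h, out of 24 libraries in a series that also sampled each genotype at 0, 3 and 6 h. All groups were grown in FTDA, a defined stem cell medium, and the groups after 0 h received 1.5 ng/ml of the growth factor BMP4 together with 1.5 µM of CHIR, a GSK3 inhibitor that switches on WNT signalling. RNA was sequenced as stranded mRNA libraries. The sources used here do not give how the knockout was made, whether the KO cells were 1 clone, or whether separate cultures lie behind the libraries of each group. The p-values thus measure the spread between libraries, which may be technical. That spread was taken within the 8 groups of all 24 libraries, not from the 48 h libraries alone. Of 57820 genes in the deposited table, 19835 had enough reads to be tested, and every count below is out of these or of the named list's tested members. Levels are given in CPM, reads scaled to the same total in each library, which are not divided by gene length and so are compared only within a gene. Differences are KO minus WT on the scale log2(CPM + 0.25), with the standard error from limma. It fits a linear model to each gene and shares information on the spread between genes. A gene was called at a Benjamini-Hochberg adjusted p under 0.05.

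Induction with BMP and WNT signals moves stem cells out of pluripotency through a state like the primitive streak, the strip of the embryo where mesoderm and endoderm form. T-box and homeobox factors such as TBXT, EOMES, MIXL1 and EVX1 mark that state. Cells that stay under strong WNT and FGF signals become presomitic mesoderm, marked by TBX6 and MSGN1, while BMP favours lateral plate mesoderm, marked by HAND1 and FOXF1. NODAL signalling, marked by LEFTY1, sustains pluripotency and favours endoderm.

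The level of RBPMS mRNA did not check the labels. RBPMS (chromosome 8) stood at 87.7, 80.6 and 92.5 CPM in KO libraries, against 104, 95.5 and 95.4 CPM in WT libraries. The 48 h groups did not overlap, but the difference was small and not called (limma, -0.14 ± 0.08, adjusted p = 0.293). At 0 h RBPMS stood at 158, 153 and 153 CPM in KO and 155, 121 and 130 CPM in WT libraries. A more negative difference at 48 h than at 0 h was called for RBPMS (limma, -0.37 ± 0.11, adjusted p = 0.0348). Its paralog RBPMS2 stood at 57.05, 56.5 and 64.1 CPM in KO libraries, against 51.8, 47.6 and 42.95 CPM in WT libraries, a difference at the edge of the threshold (limma, 0.36 ± 0.12, adjusted p = 0.045), and the call ended without any 48 h library other than WT library 1 (adjusted p up to 0.184); transcript counts gave -0.75 for it.

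WT library 3 of 48 h stood apart from its mates. Its correlation with them was 0.991 for each, against 0.997 between WT libraries 1 and 2 and 0.998 between KO libraries, across the genes tested on the log scale. Its deviation from its mates had an SD of 0.399 on the log2 scale, against 0.181 to 0.27 for the others. WT library 1 of 0 h also stood apart, since its correlations with its mates, 0.975 and 0.978, were below those of any WT with any KO library of 0 h (0.982 to 0.988). Of the 2443 genes called at 48 h, 1681 remained called without WT library 3, and 0 changed sign. Depth was 37634402 to 49093515 reads in KO and 38729308 to 44000430 reads in WT libraries, so 3 reads corresponded to 0.0611 to 0.0797 CPM. The 6 markers of stem cells summed to 6299 to 6643 CPM in KO, against 4739.6 to 4886 CPM in WT libraries, and the 6 of mesoderm to 1019 to 1143 CPM in KO, against 1654 to 1848 CPM in WT libraries. Markers of neuroectoderm, trophoblast, blood and cardiac muscle summed to under 1 CPM in every 48 h library. The 3 endoderm markers summed to 85.002 to 95.5 CPM in KO, against 51.2 to 63.5 CPM in WT libraries. The 5 fibroblast markers summed to 58.1 to 66.3 CPM in KO, against 62.9 to 65.2 CPM in WT libraries, mostly from COL1A1, while PDGFRB stood at 3.36 to 3.59 CPM in KO, against 11.5 to 12.7 CPM in WT libraries, and DCN and LUM had 0 and 2 reads over the 6. The part of these cell types in the results was not tested. In RNA from whole cultures, fewer cells of a type and less RNA per cell cannot be told apart.

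In KO libraries 1505 genes (7.59%) were called higher and 938 (4.73%) lower than in WT libraries, in all 2443 genes or 12.3% of those tested. These shares over all genes are the background of each list's count below. The median difference over all genes was 0.0056. A difference of at least 1 on the log2 scale was seen for 291 genes called higher (1.47%) and 250 called lower (1.26%). Among the 12 most negative differences of called genes with a mean of at least 5 CPM in a group, 5 belonged to genes of early mesoderm: RSPO3, MSGN1, EVX1, its antisense transcript EVX1-AS and APLNR. The libraries of the genotypes did not overlap for 3213 genes higher (16.2%) and 3911 lower (19.7%) in KO. Leaving out each 48 h library in turn gave 1052 to 1367 genes higher and 642 to 847 lower. A second deposited table, of transcript counts, held 22.08 to 26.4% of the reads of a library, and within groups its libraries deviated in only partly the same way as those of the gene table (r of 0.319 to 0.801 across genes). It gave 449 higher and 309 lower when summed per gene and tested with edgeR, and turned the direction of 17 of 146 results for named genes; the difference it gave is printed beside each such gene named below.

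**Figure D1:**
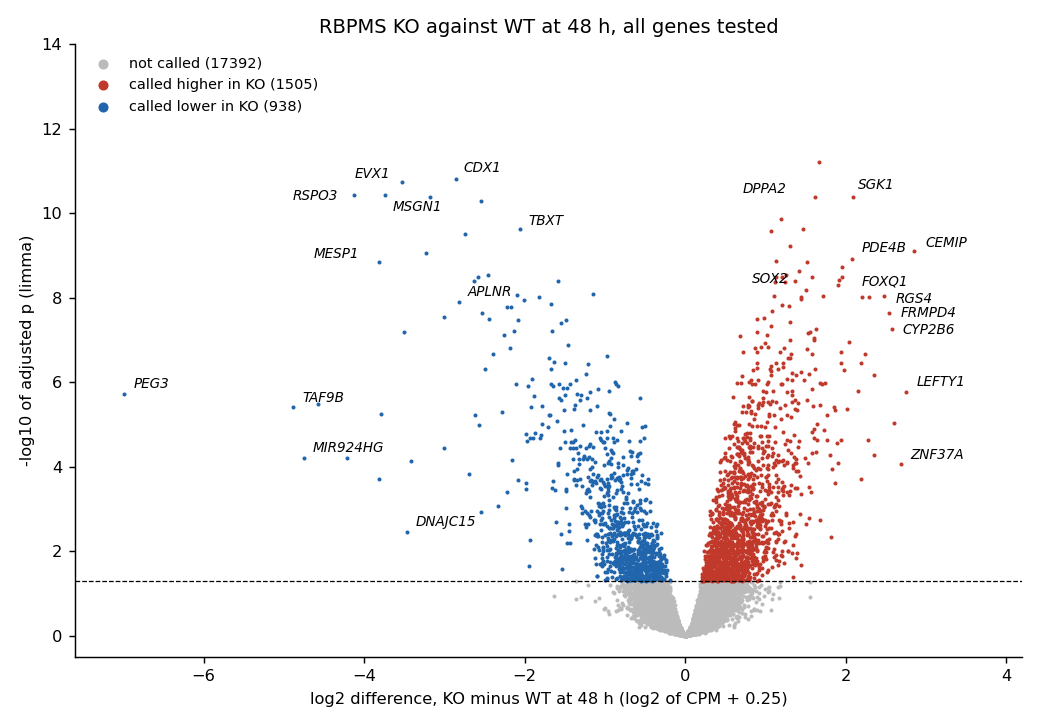
Each point is a gene; the x axis is the log2 difference, KO minus WT at 48 h, and the y axis is -log10 of the adjusted p from limma, with the threshold of 0.05 dashed. The 1505 genes called higher in KO (red) are more numerous than the 938 called lower (blue), and EVX1, MSGN1, RSPO3 and CDX1 lie at the far upper left.

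Most genes of the primitive streak were lower in KO cells than in WT cells. Of 17 tested members of the list, 9 were called lower and 1 higher, with a median difference of -0.55. TBXT, the T-box factor brachyury (chromosome 6, from 166157656 to 166168700 on the minus strand, positions of GENCODE 29 on hg38), stood at 58.9, 52.5 and 59.6 CPM in KO libraries, against 228, 269.9 and 239 CPM in WT libraries. At 0 h it had averaged 0.00843 ± 0.0146 CPM in KO and 0.025 ± 0.0432 CPM in WT libraries (SD, n = 3 each), so it was on in both genotypes at 48 h, at a clearly lower level in KO libraries (limma, -2.06 ± 0.13, adjusted p = 2.38e-10). The homeobox factor EVX1 stood at 4.01, 2.4 and 3.72 CPM in KO libraries, against 34.3, 45.00 and 48.3 CPM in WT libraries. The KO libraries lay far below the WT libraries for EVX1 (limma, -3.53 ± 0.19, adjusted p = 1.82e-11). MESP1, a basic helix-loop-helix factor of the earliest heart and head mesoderm, stood at 0.106, 0.0407 and 0.0225 CPM in KO libraries, against 2.32, 3.77 and 8.45 CPM in WT libraries. Its WT libraries varied widely, yet all lay far above the KO libraries (limma, -3.82 ± 0.27, adjusted p = 1.43e-09).

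Other streak genes called lower were the WNT ligand WNT8A (-1.83), the presomitic factors TBX6 (-1.49) and MESP2 (-1.48), and the WNT target SP5 (-1.42). EOMES, the T-box factor shared by endoderm and mesoderm, stood at 517, 473 and 520.0 CPM in KO libraries, against 714, 737 and 742 CPM in WT libraries. Its groups did not overlap and it was called lower (limma, -0.50 ± 0.13, adjusted p = 0.0133), but not without KO library 2 or WT library 3 (adjusted p up to 0.0683). MIXL1, a homeobox factor of the streak, stood at 558, 487 and 555 CPM in KO libraries, against 872, 803 and 630.4 CPM in WT libraries and missed the threshold (limma, -0.48 ± 0.16, adjusted p = 0.0572). FOXA2, which marks the anterior streak and endoderm, was the member called higher. NODAL, GSC, CER1 and WNT3 were among those not called.

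Presomitic mesoderm genes showed the lowest median of the 37 lists, -0.90, with 12 of 20 called lower and 3 higher. RSPO3, a secreted protein that strengthens WNT signalling, stood at 1.7, 0.856 and 1.69 CPM in KO libraries, against 25.3, 43.4 and 21.5 CPM in WT libraries. All KO libraries were under 2 CPM (limma, -4.13 ± 0.23, adjusted p = 3.64e-11). MSGN1, a master factor of presomitic fate, stood at 0.452, 0.122 and 0.225 CPM in KO libraries, against 4.39, 9.06 and 7.32 CPM in WT libraries, so it was close to its floor in KO libraries (limma, -3.74 ± 0.21, adjusted p = 3.64e-11). Also called lower were the Notch ligand DLL3 (-1.98) and the segmentation clock repressor HES7 (-1.80), the forkhead factor FOXC1 (-1.47), the protocadherin PCDH19 (-1.38), the ephrin receptor EPHA4 (-0.90), RIPPLY1 (-0.52), and the retinoic acid degrading enzyme CYP26A1 (-0.89). The 3 called higher were TCF15 (0.59), the Notch modifier LFNG (0.64) and UNCX (0.74), factors that act in or after segmentation. DLL1 and TBX18 were not called. In limma, calls ended for RIPPLY1 without KO library 1 or WT library 2 or 3 (adjusted p up to 0.188) and for TCF15 without KO library 1 or 2 or 3 or WT library 2 or 3 (adjusted p up to 0.138).

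Several genes of posterior identity were lower as well. The list of HOX and caudal genes had 7 tested members, of which 4 were called lower and 0 higher. The caudal factors give posterior identity to the embryo. The caudal factor CDX1 stood at 0.345, 0.367 and 0.315 CPM in KO libraries, against 3.04, 4.98 and 4.77 CPM in WT libraries, with no overlap and little spread in the KO libraries (limma, -2.85 ± 0.15, adjusted p = 1.55e-11). CDX2 stood at 0.319, 0.163 and 0.338 CPM in KO libraries, against 1.42, 2.94 and 3.89 CPM in WT libraries (limma, -2.39 ± 0.24, adjusted p = 2.12e-07). CDX4 differed less (-0.77), and its call ended without WT library 3 (adjusted p = 0.0683). HOXB1, HOXB2 and HOXA10 were not called.

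In the list of cardiac and lateral plate mesoderm, 10 of 26 tested members were called lower and 1 higher, with a median of -0.28. APLNR, the receptor for apelin and Apela peptides, which guides early mesoderm cells, stood at 58.4, 41.04 and 53.2 CPM in KO libraries, against 316, 505 and 309.8 CPM in WT libraries. It was called lower at a high level of reads (limma, -2.82 ± 0.24, adjusted p = 1.26e-08). LIX1 (-2.46), the homeobox factors MSX1 (-1.81) and MSX2 (-1.19), FOXF1 (-1.71), TBX3 (-1.61) and the ligand BMP4 (-0.63) were also called lower. HAND1 stood at 0, 0.0815 and 0.0225 CPM in KO libraries, against 0.174, 0.697 and 0.455 CPM in WT libraries, under 1 CPM in all 6 libraries, and was called lower (limma, -1.18 ± 0.23, adjusted p = 0.00112). KDR, a receptor of blood vessel and blood precursors, was called higher at 369, 345 and 352 CPM in KO libraries, against 326, 251 and 240.2 CPM in WT libraries (limma, 0.44 ± 0.12, adjusted p = 0.0185), a call that ended without KO library 1 or 3 or WT library 2 or 3 (adjusted p up to 0.095). KDR was high before induction too, at 481, 432 and 428 CPM in KO and 433, 306 and 331 CPM in WT libraries of 0 h. GATA4, GATA6, ISL1 and TBX5 were not called. Later cardiac genes were near the floor: TNNT2 stood at 0.345, 0.285 and 0.248 CPM in KO libraries, against 0.349, 0.413 and 0.318 CPM in WT libraries. In the haemogenic and endothelial list 2 of 14, KDR and LMO2, were called higher and 0 lower. The count higher was 0 without KO library 1. TEK of this list stood at 17.01, 15.7 and 16.1 CPM in KO libraries, against 7.03, 4.54 and 5.23 CPM in WT libraries. Its 48 h groups did not overlap, but it missed the threshold (limma, 1.56 ± 0.52, adjusted p = 0.0526). Its standard error draws on all hours, and at 0 h TEK stood at 2.74, 38.002 and 31.1 CPM in WT libraries.

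**Figure D2:**
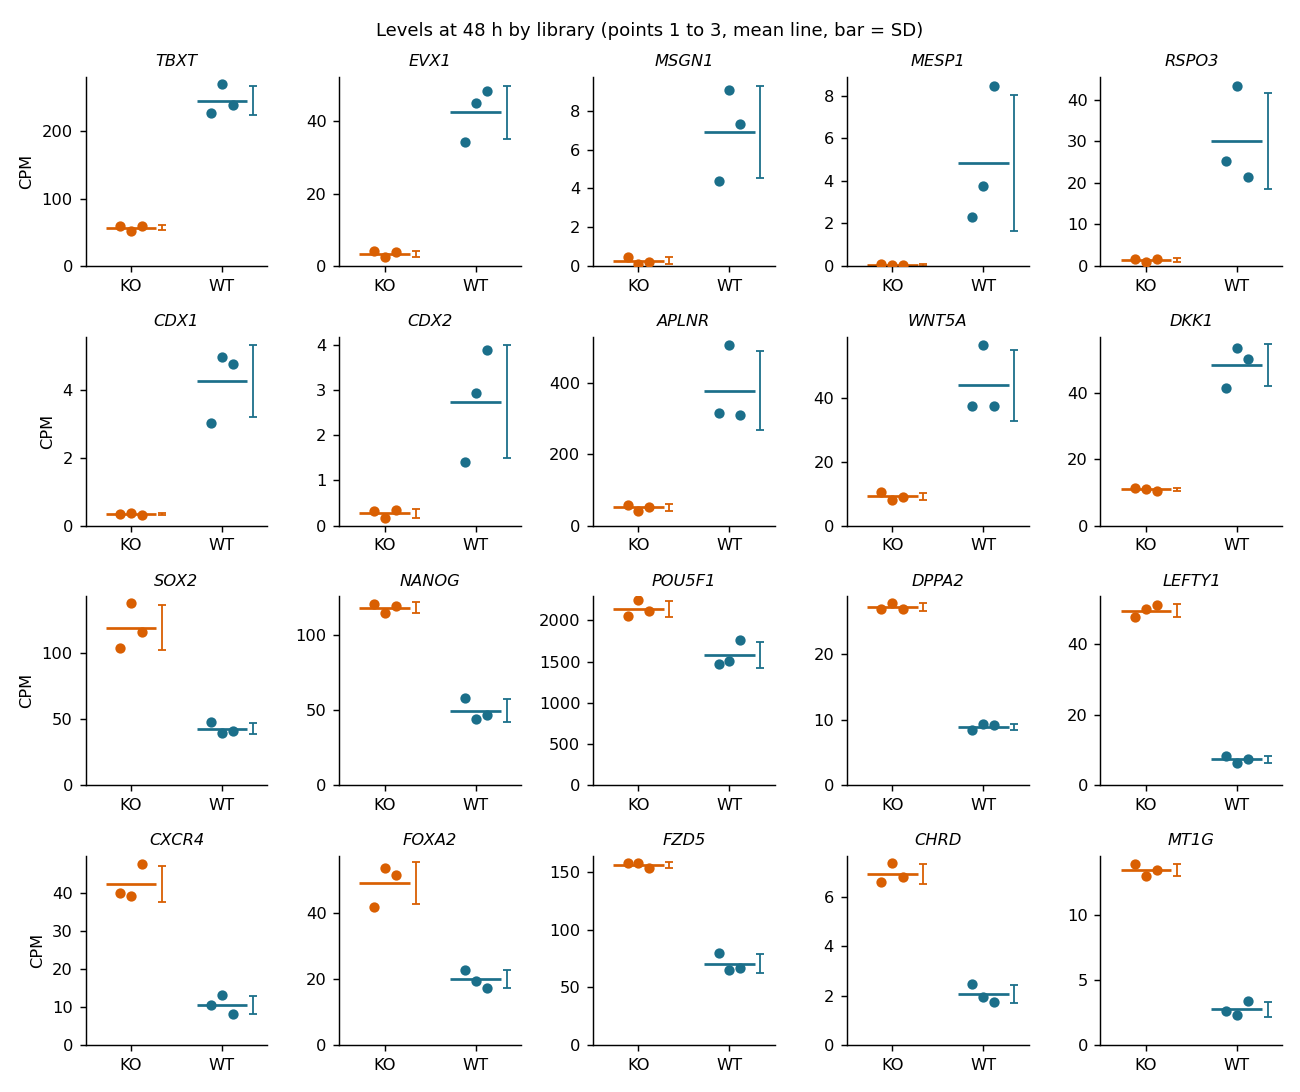
Levels of 20 named genes in CPM (y axes, each from 0) in the KO libraries, left, and the WT libraries, right, of 48 h; points are libraries 1 to 3, lines are means and bars are SDs. The first 10 panels show genes lower in KO, such as TBXT, and the last 10 genes higher in KO, such as SOX2, and no panel shows overlap between the genotypes.

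WNT pathway genes are given by role. Among ligands, 4 of 12 tested were called lower and 1 higher (WNT8B, 0.72). WNT5A, a ligand of non-canonical signalling that drives cell movement, stood at 10.4, 8.07 and 9.01 CPM in KO libraries, against 37.6, 56.8 and 37.6 CPM in WT libraries (limma, -2.17 ± 0.18, adjusted p = 1.69e-08). WNT5B stood at 3.75, 3.67 and 3.85 CPM in KO libraries, against 16.9, 17.3 and 23.2 CPM in WT libraries (limma, -2.22 ± 0.19, adjusted p = 1.69e-08). The canonical ligand WNT3A stood at 3.51, 3.42 and 3.78 CPM in KO libraries, against 8.4, 8.47 and 8.84 CPM in WT libraries (limma, -1.17 ± 0.19, adjusted p = 1.04e-04). These groups did not overlap, and the calls held in each fit without a 48 h library. WNT3, an early trigger of the streak, was not called. The WNT8B call ended without WT library 2 (limma, adjusted p = 0.0525).

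Among 18 receptors tested, 4 were called higher and 2 lower. FZD5, a frizzled receptor of WNT ligands, stood at 158, 158 and 153 CPM in KO libraries, against 80.03, 64.8 and 66.4 CPM in WT libraries, a tight and separate pair of groups (limma, 1.19 ± 0.07, adjusted p = 1.41e-10). FZD8 (1.00), FZD4 (0.39) and the WNT5A receptor ROR1 (0.92) were also higher, and FZD2 (-0.84) and FZD1 (-0.83) lower. The limma calls ended for FZD1 without KO library 2 (adjusted p up to 0.0578) and for FZD2 without KO library 1 or 2 or WT library 3 (adjusted p up to 0.0691).

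Feedback targets of WNT signalling, genes that canonical WNT signals switch on and that often damp them, counted 7 lower and 1 higher of 25, with a median of -0.29. DKK1, a secreted WNT inhibitor, stood at 11.2, 11.1 and 10.5 CPM in KO libraries, against 41.6, 53.7 and 50.5 CPM in WT libraries (limma, -2.08 ± 0.18, adjusted p = 3.35e-08). SP5, a zinc finger target of WNT signals in stem cells and mesoderm, stood at 40.3, 42.4 and 40.6 CPM in KO libraries, against 88.8, 105 and 156 CPM in WT libraries. WT libraries of SP5 spread over a wide range but lay above all KO libraries (limma, -1.42 ± 0.19, adjusted p = 1.40e-05). The nuclear effectors LEF1 (-1.02) and TCF7 (-0.61) were lower too, as were SP8 (-1.99), NKD1 (-1.20) and TNFRSF19 (-0.73). AXIN2, a widely used readout of canonical WNT signals, stood at 32.5, 34.8 and 35.7 CPM in KO libraries, against 39.3, 41.8 and 40.7 CPM in WT libraries. It did not overlap but was not called (limma, -0.20 ± 0.19, adjusted p = 0.584). This standard error draws on all hours, and at 0 h AXIN2 stood at 15.5, 32.8 and 35.1 CPM in WT libraries. The member called higher was the inhibitor SFRP1 (1.34). These limma calls ended for SFRP1 without WT library 3 (adjusted p up to 0.0567) and for TNFRSF19 without KO library 1 or 2 or WT library 2 or 3 (adjusted p up to 0.162).

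The 250 bases before the annotated starts of all genes were searched for CTTTGA, the core bound by TCF and LEF factors, on both strands. RefSeq promoters (GRCh38.p14) were found for 21 of the 25 genes of the streak, presomitic and WNT feedback lists that were called lower, 26 promoters in all. The core was present in 6 of the 26 (23.1%), in 1 of 19 promoters of members not called (5.26%), in 8.33% of 19209 promoters of genes tested, and in 11.2% of all 35116 promoters in the table. The 4 promoters below show where it lies in WNT targets and mesoderm factors that differed clearly. Capitals mark the core on either strand, and each stretch ends at the base before the annotated start. The 3 cores in SP5 begin 147, 109 and 83 bases before the start, the 2 in DKK1 149 and 95, that in MSGN1 85 and that in CDX2 238. A match describes these letters only and does not show binding.
SP5, chr2:170715087-170715336, plus strand: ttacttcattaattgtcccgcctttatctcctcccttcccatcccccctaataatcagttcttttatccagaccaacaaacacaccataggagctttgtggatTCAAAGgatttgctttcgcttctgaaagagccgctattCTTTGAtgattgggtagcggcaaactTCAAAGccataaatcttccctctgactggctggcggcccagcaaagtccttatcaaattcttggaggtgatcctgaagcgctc
DKK1, chr10:52314031-52314280, plus strand: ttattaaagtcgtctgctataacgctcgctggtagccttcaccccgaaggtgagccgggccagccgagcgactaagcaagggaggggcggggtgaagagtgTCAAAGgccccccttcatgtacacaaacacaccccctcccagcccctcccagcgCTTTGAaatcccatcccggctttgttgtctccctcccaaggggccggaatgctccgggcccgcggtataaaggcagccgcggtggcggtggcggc
MSGN1, chr2:17816210-17816459, plus strand: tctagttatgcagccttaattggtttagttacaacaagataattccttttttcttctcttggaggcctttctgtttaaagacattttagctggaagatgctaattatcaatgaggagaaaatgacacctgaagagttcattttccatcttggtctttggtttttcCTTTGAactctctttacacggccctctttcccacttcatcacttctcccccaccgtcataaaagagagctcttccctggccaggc
CDX2, chr13:27969316-27969565, minus strand: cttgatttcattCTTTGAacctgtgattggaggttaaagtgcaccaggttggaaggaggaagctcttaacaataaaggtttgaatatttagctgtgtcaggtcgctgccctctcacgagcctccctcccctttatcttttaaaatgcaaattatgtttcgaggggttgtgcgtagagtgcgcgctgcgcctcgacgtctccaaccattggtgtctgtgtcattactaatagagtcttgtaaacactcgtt

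Genes of BMP signalling, one of the 2 inducing signals, were split: 3 of 24 were called higher and 6 lower, with a median of -0.01. Among direct targets, ID4 (-0.97) and ID3 (-0.80) were lower, while ID1, a direct BMP target, stood at 15.2, 17.4 and 17.6 CPM in KO libraries, against 16.2, 18.3 and 26.6 CPM in WT libraries with overlapping groups (limma, -0.21 ± 0.22, adjusted p = 0.623). The ligands BMP4 (-0.63) and BMP2 (-0.63) were lower. CHRD, which encodes the secreted BMP antagonist chordin, stood at 6.59, 7.37 and 6.83 CPM in KO libraries, against 2.49, 1.96 and 1.75 CPM in WT libraries and was higher (limma, 1.68 ± 0.19, adjusted p = 1.04e-06). The receptor BMPR1A (0.34) and the repressor HEY1 (0.88) were higher as well. In limma, calls ended for BMP2 without KO library 1 or 2 or 3 or WT library 2 or 3 (adjusted p up to 0.168), for BMPR1A without KO library 1 or 2 or 3 or WT library 3 (adjusted p up to 0.29) and for ID3 without KO library 1 or 2 or 3 or WT library 3 (adjusted p up to 0.292).

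NODAL and activin genes counted 7 of 22 higher (31.8%) and 1 lower (4.55%), with a median of 0.17. LEFTY1, a NODAL antagonist that NODAL itself switches on, stood at 47.5, 49.8 and 50.9 CPM in KO libraries, against 8.25, 6.27 and 7.55 CPM in WT libraries. It had the second largest positive difference among the named genes, though reads may be shared with its close copy LEFTY2 (limma, 2.75 ± 0.32, adjusted p = 1.67e-06). LEFTY2 (0.83), the co-receptor TDGF1 (0.46), the ligand GDF3 (1.43), SMAD3 (0.56), SKIL (0.64) and TGFB2 (1.13) were also called higher. FST, the activin antagonist follistatin, was lower (-0.67). NODAL itself was not called. The limma calls ended for LEFTY2 without KO library 1 or 2 or WT library 1 or 2 (adjusted p up to 0.098) and for SKIL without WT library 3 (adjusted p up to 0.0791).

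FGF and ERK genes counted 6 higher and 1 lower of 29, among them the receptor FGFR2 (0.82), the ligand FGF1 (1.03), the feedback inhibitor SPRY1 (0.64) and the ETS factors ETV4 (0.44) and ETV5 (0.77). The streak ligands FGF8 and FGF17 were not called. In the Notch list 5 of 21 were higher and 2 lower. The general Notch effectors HES1 (1.20), HEY1, HEY2 (0.81, but -0.85 from transcript counts) and NRARP (0.57) were higher, and the clock genes DLL3 and HES7 lower. The count higher was 3 without WT library 3. Retinoid genes counted 3 higher and 3 lower of 19. CYP26A1 was lower at 159, 139 and 169 CPM in KO libraries, against 288, 310.4 and 291 CPM in WT libraries, while its paralog CYP26C1 was higher (0.82). The count lower was 1 without WT library 3. In limma, calls ended for ETV5 without KO library 1 or 2 or 3 or WT library 3 (adjusted p up to 0.179), for HES1 without KO library 3 or WT library 2 or 3 (adjusted p up to 0.0619) and for NRARP without KO library 2 or WT library 3 (adjusted p up to 0.0862).

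Most pluripotency genes were higher in KO cells. Of 29 tested, 19 were called higher and 0 lower, with a median of 0.72, and leaving out each 48 h library gave 17 to 19. The list's median was 0.21 at 0 h, -0.09 at 3 h and -0.12 at 6 h. A more positive difference at 48 h than at 0 h was called for 12 of the 29. SOX2, a core factor of pluripotency that mesoderm switches off (chromosome 3, from 181711924 to 181714436 on the plus strand), stood at 104, 138 and 116 CPM in KO libraries, against 47.6, 39.8 and 41.5 CPM in WT libraries. The groups were well apart (limma, 1.50 ± 0.12, adjusted p = 6.81e-09). At 0 h SOX2 had averaged 329 ± 15.96 CPM in KO and 362 ± 38.5 CPM in WT libraries (SD, n = 3 each), so it was below its uninduced level in both genotypes. NANOG, another core factor, stood at 121, 114 and 119 CPM in KO libraries, against 58.1, 43.8 and 46.7 CPM in WT libraries (limma, 1.30 ± 0.11, adjusted p = 1.58e-08). At 0 h NANOG had stood at 192, 176 and 168 CPM in KO and 133, 105 and 119 CPM in WT libraries, so it was higher in KO before induction too. POU5F1, which encodes OCT4, stood at 2059, 2249 and 2112 CPM in KO libraries, against 1475, 1508 and 1761 CPM in WT libraries, a smaller difference (limma, 0.48 ± 0.11, adjusted p = 0.00401). DPPA2, a chromatin protein of stem cells, stood at 26.8, 27.8 and 26.9 CPM in KO libraries, against 8.42, 9.3 and 9.11 CPM in WT libraries, with the smallest spread of these (limma, 1.61 ± 0.09, adjusted p = 4.07e-11). On the log2 scale DPPA2 had differed by 0.76 at 0 h and the other way, by -1.31, at 3 h.

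Further members called higher were the deubiquitinase USP44 (1.11), the RNA polymerase III subunit POLR3G (1.44), FOXD3 (1.59), KLF4 (1.16), PRDM14 (1.05), TERF1 (0.98), ZFP42 (0.96), L1TD1 (0.72), DPPA4 (0.50), DPPA5 (0.79), OTX2 (0.58) and the long noncoding RNAs ESRG (0.97) and LNCPRESS1 (0.68). LIN28A stood at 1833, 1815 and 1792 CPM in KO libraries, against 1739, 1778 and 1529 CPM in WT libraries and was not called (limma, 0.15 ± 0.09, adjusted p = 0.344). DNMT3B, SALL4, LIN28B and ZIC2 were not called either. In limma, calls ended for DPPA5 without KO library 1 or 2 or WT library 1 or 3 (adjusted p up to 0.139) and for LNCPRESS1 without KO library 2 or WT library 2 (adjusted p up to 0.0702).

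**Figure D3:**
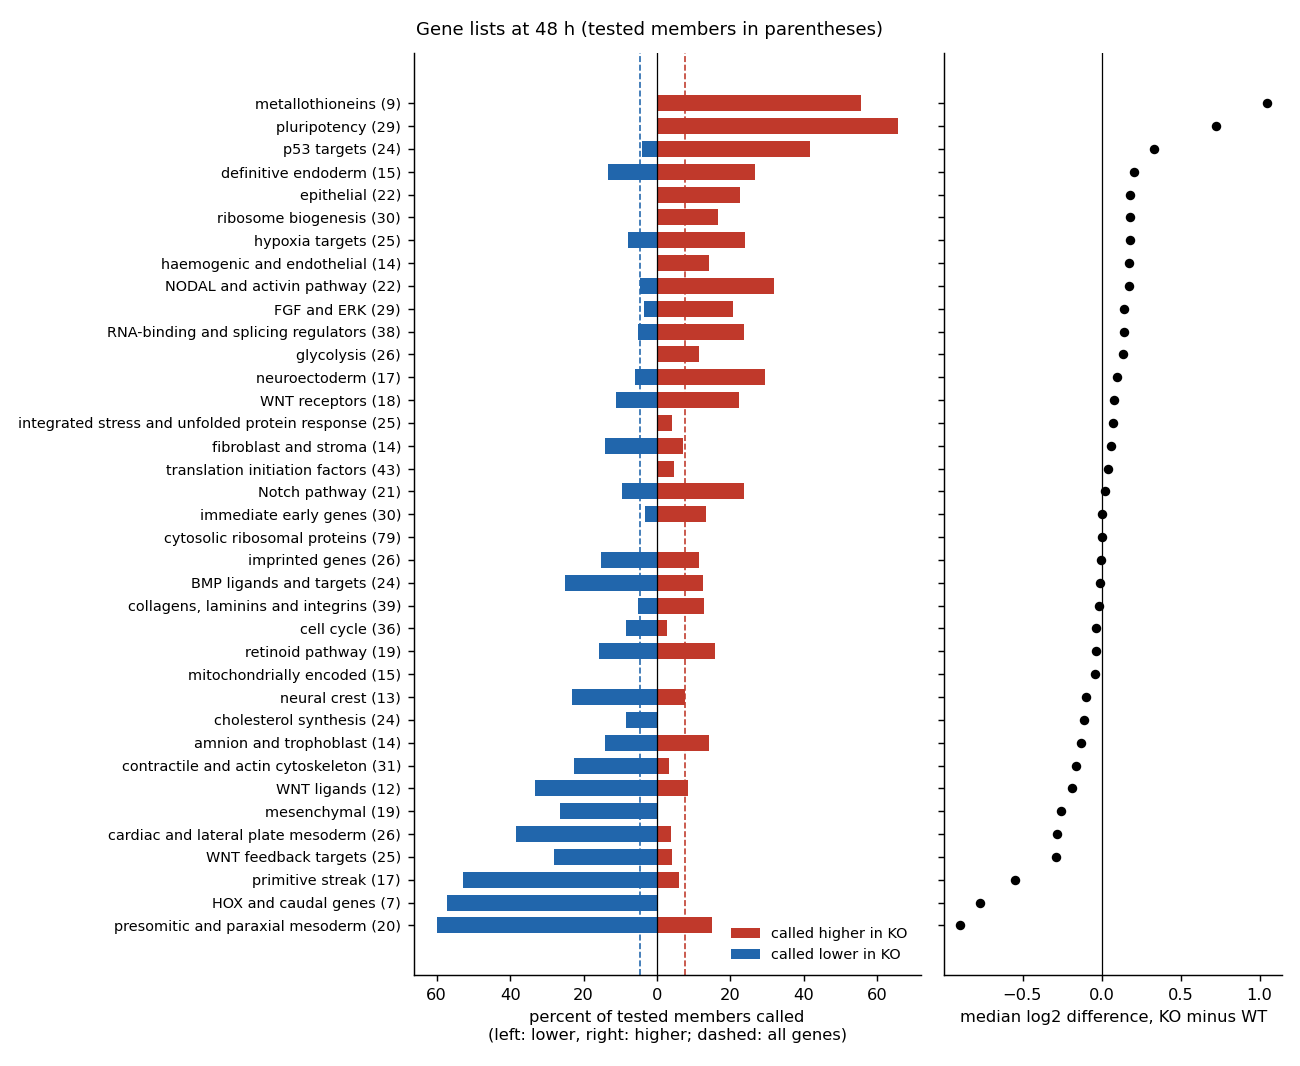
For 37 gene lists, the left panel gives the percent of tested members called higher (right, red) or lower (left, blue) in KO at 48 h, with dashed lines at the 7.59% and 4.73% of all genes, and the right panel the median log2 difference, KO minus WT. Pluripotency and metallothionein lists lie at the top, and presomitic mesoderm, HOX and caudal, and primitive streak lists at the bottom.

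Among markers of definitive endoderm 4 of 15 were higher and 2 lower. CXCR4, the chemokine receptor by which endoderm cells are sorted, stood at 40.2, 39.4 and 47.8 CPM in KO libraries, against 10.4, 13.1 and 8.18 CPM in WT libraries (limma, 2.04 ± 0.20, adjusted p = 1.16e-07). FOXA2, a pioneer factor of endoderm, stood at 41.8, 53.8 and 51.6 CPM in KO libraries, against 22.9, 19.5 and 17.4 CPM in WT libraries (limma, 1.33 ± 0.16, adjusted p = 2.96e-06). The receptor KIT (0.99) and FOXA1 (1.22) were also higher. CXCR4 was not called at 48 h from transcript counts. SOX17, the defining factor of the lineage, stood at 42.2, 38.8 and 42.6 CPM in KO libraries, against 27.8, 35.1 and 45.9 CPM in WT libraries, so its groups overlapped and it was not called (limma, 0.25 ± 0.17, adjusted p = 0.412). The members called lower were EOMES and FLRT3, and neither was called without KO library 2. EOMES was not called without WT library 3 either (limma, adjusted p up to 0.0683), nor FLRT3 without WT library 2 (limma, adjusted p up to 0.0919).

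Neuroectoderm genes counted 5 higher (29.4%) and 1 lower (5.88%) of 17. POU3F1, a POU factor of early neural cells, stood at 3.51, 3.5 and 3.18 CPM in KO libraries, against 1.22, 0.8 and 0.886 CPM in WT libraries (limma, 1.62 ± 0.17, adjusted p = 4.84e-07). SIX3 (1.52) and HESX1 (0.97), factors of the anterior neural plate, OTX2 and SOX2 made up the rest, and GBX2, a more posterior factor, was lower (-0.91). PAX6 had 2 reads over the KO libraries and 0 over the WT libraries, which allows up to 0.0775 CPM in a WT library. Neural crest genes counted 1 higher (FOXD3) and 3 lower (MSX1, SNAI2 and SOX9) of 13. Genes of amnion and trophoblast counted 2 higher (IGFBP3, 1.61, and TFAP2C, 0.43) and 2 lower (CDX2 and HAND1) of 14.

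Genes of the epithelial to mesenchymal change, by which cells leave the streak, are given by side. Of 19 mesenchymal genes 0 were called higher and 5 lower, with a median of -0.25. ZEB2, a repressor of epithelial genes, stood at 1.59, 0.998 and 1.06 CPM in KO libraries, against 6.08, 9.11 and 5.89 CPM in WT libraries (limma, -2.26 ± 0.21, adjusted p = 7.70e-08). SNAI1, a repressor of E-cadherin, stood at 12.2, 10.8 and 13.9 CPM in KO libraries, against 20.4, 23.7 and 27.4 CPM in WT libraries (limma, -0.90 ± 0.13, adjusted p = 4.75e-05). SNAI2 (-1.33), N-cadherin (CDH2, -0.69) and the protease BMP1 (-0.76) were lower too. Of 22 epithelial genes 5 were called higher and 0 lower: EPCAM (0.50, but -1.44 from transcript counts), MARVELD3 (0.56), PKP2 (0.40), GRHL2 (0.38) and the splicing factor ESRP1 (0.30). E-cadherin (CDH1) was not called, nor were VIM and FN1. The limma calls ended for CDH2 without KO library 2 or WT library 1 or 2 (adjusted p up to 0.0961) and for ESRP1 without KO library 1 or WT library 3 (adjusted p up to 0.132).

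RBPMS proteins are known from smooth muscle, where they act on splicing of contractile genes, and the list of contractile and actin genes counted 1 higher and 7 lower of 31. MYL9, the regulatory light chain of smooth muscle myosin, stood at 18.97, 20.7 and 19.7 CPM in KO libraries, against 53.4, 57.3 and 76.7 CPM in WT libraries (limma, -1.59 ± 0.12, adjusted p = 4.05e-09). At 0 h the difference was -1.35 on the log2 scale. TAGLN stood at 120.2, 121 and 119.5 CPM in KO libraries, against 211, 238 and 279 CPM in WT libraries (limma, -0.96 ± 0.19, adjusted p = 0.00127), with a similar difference at 0 h (-0.85). At 0 h TAGLN stood at 53.7, 59.2 and 61.1 CPM in KO and 63.5, 158 and 122 CPM in WT libraries, so WT library 1 lay near the KO libraries. CNN1 (-0.68), DES (-0.80), and the atrial light chain MYL7 (-1.65) were lower, and SYNPO2 (1.02) was higher. ACTA2, ACTB and MYH10 were not called. DES was not called without WT library 3 (limma, adjusted p = 0.0504), and TPM4 and CALD1, called lower, each lost the call in 5 of 6 fits without 1 library (adjusted p up to 0.131 and 0.144). These values are of whole genes and say nothing of their splicing.

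Genes of collagens, laminins and integrins counted 5 higher (12.8%) and 2 lower (5.13%) of 39, the lower share near the 4.73% of all genes. The fibronectin receptor subunit ITGA5 stood at 64.1, 49.4 and 62.6 CPM in KO libraries, against 124, 137 and 125 CPM in WT libraries and was lower (limma, -1.10 ± 0.13, adjusted p = 3.64e-06), as was COL5A1 (-1.03). LAMA2, a laminin chain of muscle basement membrane, stood at 88.9, 79.3 and 85.3 CPM in KO libraries, against 34.9, 37.00 and 31.9 CPM in WT libraries and was higher (limma, 1.32 ± 0.13, adjusted p = 2.11e-07), but gave -0.41 from transcript counts. LAMA2 was higher in KO before induction too, at 107, 87.3 and 84.7 CPM in KO and 41.4, 51.9 and 66.2 CPM in WT libraries of 0 h. Also called higher were LAMA4 (1.20), COL11A1 (0.59), ITGA2 (0.58) and ITGA6 (0.52). In the fibroblast and stroma list 1 of 14 was higher (LOX) and 2 were lower (PDGFRB, -1.67, and TAGLN). The limma call ended for LOX without KO library 1 or 2 or WT library 1 or 3 (adjusted p up to 0.124) and for ITGA2 without WT library 3 (adjusted p up to 0.0571).

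Targets of p53, the stress-activated tumour suppressor, counted 10 higher and 1 lower of 24, with a median of 0.33. The ribonucleotide reductase subunit RRM2B stood at 139.8, 137 and 119 CPM in KO libraries, against 96.3, 97.99 and 76.9 CPM in WT libraries (limma, 0.59 ± 0.10, adjusted p = 2.50e-04). AEN stood at 134, 133 and 122 CPM in KO libraries, against 92.2, 94.4 and 82.6 CPM in WT libraries (limma, 0.57 ± 0.10, adjusted p = 4.37e-04). The cell cycle inhibitor CDKN1A (0.64), the p53 antagonist MDM2 (0.49), the cell death gene BBC3 (0.59), GDF15 (0.80), SESN1 (0.53, but -0.52 from transcript counts), TP53INP1 (0.55), FDXR (0.42) and BTG2 (0.37) were the others, and TP53I3 was lower (-0.41). Without KO library 1 the count higher was 6. The median of the list at 0 h was -0.30. In limma, calls ended for CDKN1A without KO library 1 (adjusted p up to 0.0663), for MDM2 without KO library 1 or 2 or WT library 3 (adjusted p up to 0.147), for FDXR without KO library 1 or 3 or WT library 1 or 2 (adjusted p up to 0.105), for BTG2 without KO library 1 or WT library 3 (adjusted p up to 0.132) and for TP53I3 without KO library 1 or 2 or WT library 3 (adjusted p up to 0.195).

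Other cell-wide programmes differed in few members. No cytosolic ribosomal protein gene of 79 and no mitochondrially encoded gene of 15 was called in limma, with 1 and 0 at an unadjusted p under 0.05, and edgeR likewise called 0 in each. The ribosomal protein genes summed to 68089.6, 72813.3 and 69040.5 CPM in KO libraries, against 60924.6, 63588.9 and 94907.3 CPM in WT libraries. WT library 3 thus lay far above its mates and the KO libraries between. Without WT library 3 the count called was still 0 each way. Translation initiation factors counted 2 higher (4.65%) and 0 lower of 43 (EIF3E and PABPC1, which gave -0.027 from transcript counts), and 0 without WT library 3. Ribosome biogenesis counted 5 higher and 0 lower of 30, but 1 without KO library 1 or 2, 2 without WT library 1 or 3, and 3 without KO library 3 or WT library 2. The stress and unfolded protein response list had 1 higher of 25, DDIT4 (0.75, but -1.35 from transcript counts), and 0 without KO library 3 or WT library 1. Cell cycle genes counted 1 higher (2.78%; CDK6, 0.65) and 3 lower (8.33%; MCM5, -0.66, TYMS, 0.0067 from transcript counts, and CDK2, 0.015 from transcript counts) of 36, and 1 lower without KO library 1 or 2.

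Hypoxia targets counted 6 higher (24%) and 2 lower (8.0%) of 25. ADM, a vessel-dilating peptide, stood at 9.96, 11.3 and 11.9 CPM in KO libraries, against 5.48, 3.85 and 4.7 CPM in WT libraries (limma, 1.24 ± 0.15, adjusted p = 3.47e-06), while transcript counts gave -2.27. STC2 (0.82), EGLN3 (0.59), VEGFA (0.50), LOX and DDIT4 were higher and CA12 (-0.86) and BHLHE40 lower, the BHLHE40 call lost in 5 of 6 fits without 1 library (limma, adjusted p up to 0.226). The list's median was 0.18 at 48 h and 0.84 at 0 h. Glycolysis genes counted 3 higher (11.5%) of 26: hexokinase HK1 (0.71, but -0.29 from transcript counts), PFKFB4 (0.71) and the lactate carrier SLC16A1 (0.34, but -0.29 from transcript counts and not called without KO library 1 or WT library 3). The glycolysis median was 0.135 at 48 h and 0.487 at 0 h. A more positive difference at 48 h than at 0 h was called for 0 of its members and a more negative one for 4. PFKFB4 had stood at 130, 120 and 123 CPM in KO and 58.9, 30.5 and 43.2 CPM in WT libraries of 0 h. Cholesterol synthesis counted 2 lower (8.33%) and 0 higher of 24, and 6 lower without WT library 1. Immediate early genes counted 4 higher (13.3%) and 1 lower (3.33%) of 30, with MYC at 41.8, 43.6 and 44.7 CPM in KO libraries, against 32.3, 25.7 and 27.8 CPM in WT libraries (limma, 0.64 ± 0.09, adjusted p = 2.14e-05); 2 were higher without KO library 1 or WT library 3.

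Metallothioneins, small proteins that bind zinc and copper, had the highest median of the lists, 1.05, with 5 of 9 higher and 0 lower in each fit without a 48 h library. MT1G stood at 13.9, 12.95 and 13.4 CPM in KO libraries, against 2.59, 2.27 and 3.39 CPM in WT libraries (limma, 2.24 ± 0.22, adjusted p = 2.19e-07). MT1F stood at 13.4, 11.9 and 10.3 CPM in KO libraries, against 3.11, 3.77 and 5.36 CPM in WT libraries (limma, 1.54 ± 0.27, adjusted p = 2.99e-04). MT1E (1.38), MT1X (1.26) and MT2A (1.05) were higher too. Before induction the list's median was already 1.46. A more positive difference at 48 h than at 0 h was called for 0 members and a more negative one for 1. MT1G had stood at 87.6, 93.9 and 104 CPM in KO and 22.7, 36.0 and 39.1 CPM in WT libraries of 0 h. These genes are near copies of each other, so reads may be divided between them. Transcript counts gave -0.13 for MT1F and -0.039 for MT1X, and no call for MT1G. MT1G did not keep this direction at 3 h, where it stood at 0.36, 0.257 and 0.0216 CPM in KO libraries of 3 h, against 55.8, 61.1 and 62.3 CPM in WT libraries of 3 h. The promoter of MT1X, the member with a RefSeq entry among those named, holds 4 copies of the core that the zinc sensor MTF1 binds, TGCGCNC or TGCACNC on either strand, in capitals below. They begin 150, 122, 78 and 53 bases before the start. All 3 metallothionein promoters in the table hold at least 1, as do 30.8% of promoters of genes tested and 24.8% of all promoters.
MT1X, chr16:56682220-56682469, plus strand: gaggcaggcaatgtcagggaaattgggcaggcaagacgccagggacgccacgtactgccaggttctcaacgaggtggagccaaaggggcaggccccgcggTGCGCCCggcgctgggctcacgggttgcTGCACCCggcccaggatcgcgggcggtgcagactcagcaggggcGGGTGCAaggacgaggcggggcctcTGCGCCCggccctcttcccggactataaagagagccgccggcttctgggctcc

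Some of the largest differences belonged to genes that were on in some groups of libraries and off in others. PEG3, an imprinted zinc finger gene (chromosome 19, from 56810077 to 56840728 on the minus strand), stood at 0, 0 and 0 CPM in KO libraries, against 35.9, 35.5 and 28.4 CPM in WT libraries. It had 0 reads in the KO libraries and 4062 in the WT libraries, which makes it at least 417-fold lower in KO against the highest floor of 3 reads per library. PEG3 also stood at 0, 0.0257 and 0 CPM in KO and 36.3, 35.7 and 35.4 CPM in WT libraries of 3 h. At 0 h it stood at 0, 0 and 0 CPM in KO and 13.8, 0 and 0 CPM in WT libraries, so WT libraries 2 and 3 of 0 h were like KO ones.

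TAF9B, a subunit shared by transcription initiation complexes (chromosome X, from 78129748 to 78139706 on the minus strand), stood at 3.08, 2.53 and 2.23 CPM in KO libraries, against 86.01, 96.1 and 77.8 CPM in WT libraries. The groups of 48 h were far apart (limma, -4.89 ± 0.60, adjusted p = 3.99e-06). At 3 h it stood at 41.3, 43.2 and 30.4 CPM in KO and 41.3, 41.4 and 39.9 CPM in WT libraries, so the genotypes were alike in range there. At 0 h it stood at 2.07, 1.82 and 1.68 CPM in KO and 22.9, 0.849 and 1.2 CPM in WT libraries. DNAJC15, a mitochondrial co-chaperone, stood at 1.65, 1.28 and 1.55 CPM in KO libraries, against 19.1, 20.2 and 19.2 CPM in WT libraries (limma, -3.47 ± 0.78, adjusted p = 0.00345), and the imprinted gene NAP1L5 at 0.717, 0.815 and 0.788 CPM in KO libraries, against 7.0, 7.13 and 5.77 CPM in WT libraries (limma, -2.70 ± 0.44, adjusted p = 1.49e-04). DESeq2 gave no adjusted p for PEG3, TAF9B, DNAJC15 and NAP1L5, while edgeR called each of them at 48 h (adjusted p up to 0.00345).

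ZNF37A, a zinc finger gene, differed the other way at 48 h, at 33.2, 34.02 and 31.7 CPM in KO libraries, against 5.38, 5.22 and 4.52 CPM in WT libraries (limma, 2.69 ± 0.42, adjusted p = 8.76e-05). At 3 h it stood at 2.21, 2.11 and 2.44 CPM in KO and 6.9, 6.27 and 6.6 CPM in WT libraries, the opposite direction. At 0 h it stood at 28.3, 23.8 and 23.5 CPM in KO and 4.08, 29.3 and 34.4 CPM in WT libraries. CCDC152 showed the same order of groups at 48 h, 24.5, 24.1 and 23.7 CPM in KO libraries, against 5.56, 5.14 and 4.95 CPM in WT libraries (limma, 2.19 ± 0.37, adjusted p = 1.95e-04), although it overlaps SELENOP on the other strand. Imprinted genes in all counted 3 higher (11.5%; BLCAP, 0.67, ZDBF2, 0.78, and MEG3, 1.29) and 4 lower (15.4%; PEG3, NAP1L5, PHLDA2, -0.87, and NNAT, -0.77) of 26. The NNAT call ended without KO library 1 or WT library 3 (limma, adjusted p up to 0.0721).

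Noncoding RNAs were among the lowest in KO. The long noncoding RNA MIR924HG stood at 0.186, 0.0204 and 0.0901 CPM in KO libraries, against 9.94, 8.86 and 9.25 CPM in WT libraries (limma, -4.75 ± 0.73, adjusted p = 6.16e-05). At 3 h MIR924HG stood at 6.27, 8.31 and 4.34 CPM in KO and 5.49, 5.41 and 5.4 CPM in WT libraries, so the genotypes were alike in range there. LINC02864 had 1 read over the KO libraries, against 6.85, 5.78 and 6.02 CPM in WT libraries. The pseudogene SLC25A3P1 stood at 0.372, 0.265 and 0.451 CPM in KO libraries, against 12.6, 11.1 and 10.8 CPM in WT libraries, where reads of its parent SLC25A3 may be counted. DESeq2 gave no call at 48 h for LINC02864 and SLC25A3P1. At 0 h WT library 1 stood at 9.92 CPM for MIR924HG, 3.52 for LINC02864 and 9.27 for SLC25A3P1, while WT libraries 2 and 3 were near KO libraries. YPEL3-DT (-3.42) overlaps YPEL3 and EVX1-AS (-3.23) overlaps EVX1 on the other strand, and whether the counting used strand is not given in the sources used here. YPEL3-DT had differed the other way at 3 h (1.15) and 6 h (1.40).

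**Figure D4:**
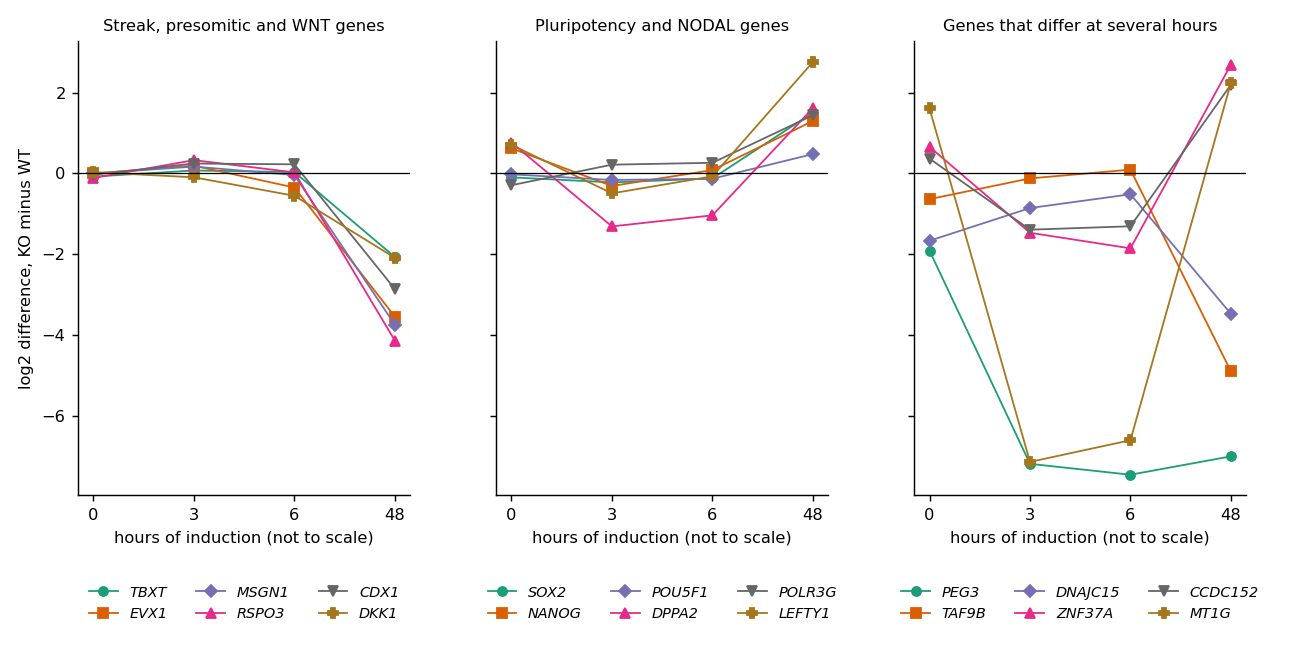
Log2 difference, KO minus WT (y axis), at 0, 3, 6 and 48 h (x axis, evenly spaced) for 18 named genes in 3 panels, each point from 3 libraries a group. Streak and WNT genes (left) lie between -0.55 and 0.33 until 6 h and at -2.06 or below at 48 h, while genes such as MT1G (right) change direction between hours.

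The largest positive differences among genes with at least 5 CPM included genes of no list. CEMIP, which breaks down hyaluronan, stood at 6.88, 8.31 and 8.33 CPM in KO libraries, against 1.3, 0.904 and 0.568 CPM in WT libraries (limma, 2.86 ± 0.20, adjusted p = 7.96e-10). RGS4, a brake on G protein signals, stood at 5.45, 6.5 and 6.6 CPM in KO libraries, against 0.972, 1.06 and 0.75 CPM in WT libraries (limma, 2.48 ± 0.20, adjusted p = 9.01e-09). SGK1, a kinase induced by serum and glucocorticoids, stood at 15.01, 17.8 and 14.3 CPM in KO libraries, against 3.84, 3.25 and 3.68 CPM in WT libraries, with the lowest p of the 12 named on this side (limma, 2.09 ± 0.12, adjusted p = 4.07e-11). The phosphodiesterase PDE4B stood at 26.1, 26.9 and 28.3 CPM in KO libraries, against 8.5, 6.35 and 4.82 CPM in WT libraries (limma, 2.08 ± 0.15, adjusted p = 1.21e-09). The forkhead factor FOXQ1 (2.29), the cytochrome CYP2B6 (2.57) and the synaptic scaffold gene FRMPD4 (2.54) completed this set. Each of these kept its call in every fit without a 48 h library. Transcript counts gave no call at 48 h for CEMIP, RGS4, SGK1 and FRMPD4. FRMPD4 had differed by 1.64 on the log2 scale at 0 h. The change in its difference from 0 to 48 h was not called (limma, 0.90 ± 0.31, adjusted p = 0.0793).

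RNA-binding and splicing regulators, the class of RBPMS itself, counted 9 higher (23.7%) and 2 lower (5.26%) of 38, but 3 higher without WT library 3 and 5 without KO library 1. ELAVL2, a neuronal relative of HuR, stood at 20.96, 21.3 and 20.2 CPM in KO libraries, against 9.42, 9.94 and 6.66 CPM in WT libraries (limma, 1.30 ± 0.12, adjusted p = 1.01e-07). The splicing regulators NOVA2 (0.61) and MBNL1 (0.51) and the editing cofactor RBM47 (0.53, but -0.21 from transcript counts) were higher, and MBNL3 (-0.73, but 0.19 from transcript counts) and PTBP2 (-0.37) lower. PTBP1, RBFOX2 and QKI were not called. MBNL1 was not called without WT library 3 (limma, adjusted p = 0.0529).

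Calls were also counted by chromosome. Of 695 tested X-linked genes 152 (21.9%) were higher and 35 (5.04%) lower, against 1325 (7.15%) and 880 (4.75%) of 18543 autosomal genes. The median difference was 0.10 on X and 0.0028 on autosomes. Without WT library 3, 131 (18.8%) were higher on X and 971 (5.24%) on autosomes. At 0 h 97 (13.96%) of these X-linked genes and 1503 (8.11%) of the autosomal genes were called higher in KO. Among gene types, 50 (4.36%) of 1146 long intergenic noncoding RNAs were higher and 87 (7.59%) lower (54 lower without WT library 3), while 1362 (8.97%) of 15186 protein-coding genes were higher and 725 (4.77%) lower. These shares were not tested.

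**Figure D5:**
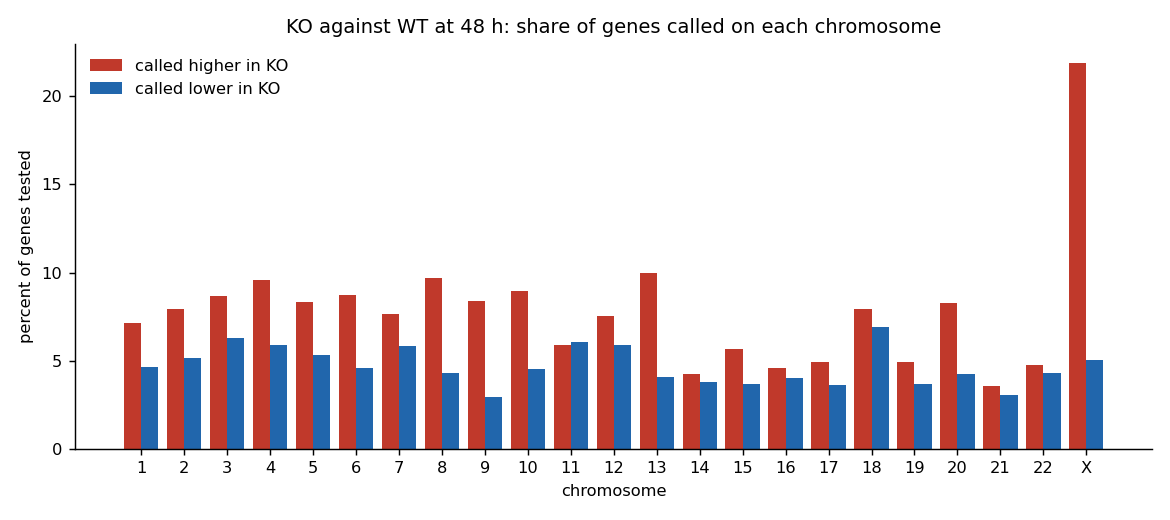
Percent of tested genes (y axis, from 0) called higher (red) or lower (blue) in KO at 48 h, for each chromosome (x axis). Chromosome X has 21.9% called higher, and each autosome has a lower share than X.

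Genes that answer the induction early in WT cells were followed to 48 h. Of 1991 genes that rose by at least 1 on the log2 scale in WT cells between 0 and 6 h, 108 (5.42%) were called higher and 185 (9.29%) lower in KO at 48 h. Of 2059 genes that fell as much, 315 (15.3%) were called higher and 61 (2.96%) lower. These genes were also required to pass an adjusted p under 0.05 (limma) between 0 and 6 h. The difference they were chosen on held no 48 h library. The spread behind that p came from all 24 libraries, so the choice was not independent of those of 48 h. The shares for all genes were 7.59% and 4.73%.

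Whether the difference between genotypes at 48 h departs from that at 0 h was tested as an interaction in the same fit. It was called for 882 genes (4.45%) with a more positive and 705 (3.55%) with a more negative difference at 48 h than at 0 h, 8.0% in all. At 0 h many streak genes were near the floor in both genotypes, so their interaction was close to the difference at 48 h: for TBXT it was -1.99 ± 0.19, adjusted p = 3.20e-07 (limma) and for EVX1 -3.53 ± 0.26, adjusted p = 1.73e-08 (limma). For SOX2 it was 1.60 ± 0.17, adjusted p = 1.73e-06 (limma). MYL9 (-0.24 ± 0.17, adjusted p = 0.454, limma) and HK1 (0.20 ± 0.13, adjusted p = 0.375, limma), which differed at 0 h as well, were not called. The counts rest on WT library 1 of 0 h, without which 2813 and 2416 genes were called, while 1058 and 935 were called with it as the only WT library of 0 h.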

How the data were processed

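RNA sequencing of 24 libraries was deposited by the authors as 2 tables of the whole series. One holds CPM per gene, which the authors scaled so that all libraries sum to the same total, and the other holds counts per transcript, also deposited by the authors. The submitters' processing notes name hg38 and DESeq2. Aligner, counter and annotation are not given in the sources used here. In the CPM table the column names lay 1 place off, and this was checked against the transcript counts, where each of the 24 libraries matched its own name with the shift undone, although the correlations of within-group deviations reached only 0.319 to 0.801. Every CPM value was a whole number of reads within 0.1 read, which gave 29896358 to 50451908 reads per library. Symbols were matched to 52338 of 57820 gene IDs with a table of gene names and GENCODE 29.

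Genes passing filterByExpr of edgeR 4.0.16 (10 reads, 15 in all) were tested with limma 3.58.1 (with its trend option) on log2(CPM + 0.25), after TMM scaling from all reads, in 1 fit of all 24 libraries in 8 groups. P-values were adjusted over all 19835 genes by Benjamini and Hochberg. Because the gene table holds CPM, the count tests edgeR and DESeq2 1.42.0 were alternatives, run on the recovered reads. Other alternatives were scaling factors, pseudocounts of 0.1 and 1, filters, a replicate block, weights, the groups compared alone, transcript counts and each library left out.

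The members and the 37 gene lists were chosen with earlier results of these data known. Named genes were the 12 largest called differences each way with no overlap and a mean of at least 5 CPM, the 4 largest interactions each way, up to 4 members of each list by adjusted p, and 20 fixed markers. Other called or uncalled list members are named after their values were seen. Same-numbered libraries did not deviate together (r of 0.051, -0.039 and 0.028), so no pairing was used. Floors of 3 reads cover counting error only. No result of XIST or chromosome Y is reported, and the results of some single genes are not reported here.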

Additional observations from a re-analysis of the deposited data

Results flagged for a closer look

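The interaction test found genes whose difference between KO and WT was not the same at 48 h as at 0 h, 882 with a more positive and 705 with a more negative difference at 48 h. The 4 named with the most positive change were RGS4 (3.06 ± 0.28, adjusted p = 3.12e-07, limma), SGK1 (2.60 ± 0.17, adjusted p = 4.37e-09, limma), CEMIP (2.44 ± 0.28, adjusted p = 4.22e-06, limma) and LRAT (2.37 ± 0.28, adjusted p = 9.48e-06, limma). LRAT, which stores retinol as esters, averaged 67.7 ± 10.4 CPM in KO libraries and 18.1 ± 4.42 CPM in WT libraries at 48 h (SD, n = 3 each), while its 0 h means were 36.6 ± 1.69 CPM in KO and 53.6 ± 24.96 CPM in WT libraries. At 0 h LRAT stood at 82.4 CPM in WT library 1 and at 40.3 and 38.1 CPM in WT libraries 2 and 3, which lay near the 35.2 to 38.5 CPM of KO libraries. Transcript counts gave 0.64 for CEMIP (edgeR, adjusted p = 0.792) and 0.30 for LRAT (edgeR, adjusted p = 0.814) and ended both calls. SGK1 averaged 12.8 ± 0.61 CPM in KO and 19.2 ± 3.91 CPM in WT libraries at 0 h, the opposite order of the genotypes from that at 48 h.

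The 4 with the most negative change were PEG3 (-5.08 ± 1.15, adjusted p = 0.00701, limma), TAF9B (-4.25 ± 0.85, adjusted p = 0.00252, limma), RSPO3 (-4.01 ± 0.32, adjusted p = 3.78e-08, limma) and MSGN1 (-3.73 ± 0.29, adjusted p = 3.10e-08, limma). RSPO3 averaged 0.0175 ± 0.0303 CPM in KO and 0.0424 ± 0.0516 CPM in WT libraries at 0 h and MSGN1 0.00874 ± 0.0151 CPM in KO and 0.00906 ± 0.0157 CPM in WT libraries, so both were near the floor before induction. At 0 h the values of PEG3 and TAF9B came from WT library 1 alone, since WT libraries 2 and 3 were as low as KO libraries. On the reads, edgeR did not call the interaction of PEG3 (adjusted p = 1), TAF9B (0.0674), RSPO3 (0.342) or MSGN1 (0.355), and DESeq2 did not call RSPO3 (0.0966) or MSGN1 (0.0623). With the groups of 0 and 48 h alone, limma did not call PEG3 (adjusted p = 0.0996) or TAF9B (0.059). Transcript counts gave -1.32 for TAF9B (edgeR, adjusted p = 0.257), -1.61 for RSPO3 (0.884) and -5.60 for MSGN1 (0.174), none of them called.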

How the results depend on the processing

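Counts of called genes moved with several settings. At 48 h the count higher in KO, 1505, was 3404 with array weights, 449 with transcript counts and 3364 with the 48 h groups alone and without WT library 3. The count lower, 938, was 578 with a filter of 5 CPM in 3 libraries, 2633 with array weights, 309 with transcript counts, 2743 with the 48 h groups alone and without WT library 3, and 1458 with WT library 1 alone kept of the WT libraries of 0 h. Leaving out each library of 0 or 48 h gave 1052 to 2206 genes higher and 642 to 1457 lower, the top of each without WT library 1 of 0 h. For the interaction, 882 and 705 in the fit of all libraries, array weights gave 2907 and 2485, transcript counts 282 and 161, the groups of 0 and 48 h alone 336 and 362, and leaving out WT library 3 of 48 h and WT library 1 of 0 h together 2945 and 2591. The negative count was 467 with edgeR and 430 with edgeR without WT library 3. Leaving out each library gave 550 to 2813 and 481 to 2416. The causes were not tested. The cases without WT library 3 in other fits, and with library 1 alone, were chosen after seeing the data.

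With a replicate block the counts were 1494 and 935 at 48 h and 880 and 691 for the interaction. The numbers do not pair the libraries, and 1 of the 180 named results gained a call. With edgeR 1487 and 924 genes were called at 48 h, with DESeq2 1563 and 1081, and with CPM as deposited 1256 and 1117. Of 180 named results 171 kept direction and call with edgeR on reads, 165 without WT library 3 and 167 without KO library 1. Transcript counts kept 86 of 146, lost 43 calls and turned 17: RBPMS2 (-0.75), HEY2 (-0.85), EPCAM (-1.44), LAMA2 (-0.41), ADM (-2.27), HK1 (-0.29), SLC16A1 (-0.29), SESN1 (-0.52), DDIT4 (-1.35), PABPC1 (-0.027), GNL3 (-0.31), TYMS (0.0067), CDK2 (0.015), MT1F (-0.13), MT1X (-0.039), RBM47 (-0.21) and MBNL3 (0.19). No other alternative turned a named direction. At 3 reads the floor was 0.0611 to 0.0797 CPM at 48 h, so levels such as those of HAND1 in KO rest on few reads.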

Other observations

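Gene families outside the lists were counted after the values were seen, so they carry no test. Of 12 chemokine genes tested (CXCL and CCL), which encode secreted guides of cell movement, 7 were called higher in KO and 0 lower at 48 h, with a median difference of 0.64, and 7 were higher without WT library 3. The chemokine median was -0.18 at 0 h. Clustered protocadherins, adhesion proteins best known from neurons, counted 10 higher and 6 lower of 49, with a median of 0.06 at 48 h and 0.43 at 0 h. Zinc finger genes with a symbol beginning ZNF counted 40 higher (8.39%) and 24 lower (5.03%) of 477, beside 7.59% and 4.73% of all genes, and 26 higher without WT library 3.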
